A study of Mus musculus with 160 samples.

Results

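The genes described here are 10 type I interferon-stimulated genes, Isg15, Ifit1, Ifit2, Ifit3, Oasl2, Rsad2, Mx1, Irf7, Usp18 and Ifi44, taken by name from the 39179 genes counted in RNA-seq libraries of mouse distal colon. The 160 libraries came from 4 knockout lines, each with its own controls. Nckap1l had 16 knockout samples and 15 controls, Dock2 18 and 24, Gpsm3 20 and 20, and Dok3 26 and 21. Knockout mice were homozygous and came from existing knockout strains, no tissue-specific deletion is described, and the study's methods give the wild-type mice as littermates. The colitis protocol was 5 days of dextran sulfate sodium (DSS), a polymer that injures the colonic epithelium, in the drinking water, followed by water alone. The labels give 3% DSS for Dock2 and Gpsm3 mice, 3.5% for Dok3 mice and no dose for Nckap1l mice. The study's methods describe a slightly lower dose for Nckap1l mice, and for Dok3 mice 3% in a first round and 3.5% afterwards. The labels do not separate these rounds. Water alone lasted 7 days in the Nckap1l line and 5 days in the others, and tissue was collected on day 12 and day 10, respectively. The strain was labelled C57BL6/J in the Nckap1l, Dock2 and Gpsm3 lines and 129 in the Dok3 line. The labels give no ages, and mice entered the colitis experiments at 8 to 10 weeks. Both DSS-treated and untreated mice were sequenced, but which sample received DSS is not stated in the labels, so knockout and wild type were compared over both. How many treated mice each group held is therefore unknown. All Gpsm3 and Dok3 samples carried the label male. Females made up 4 knockout and 8 control samples in Nckap1l, and 8 and 12 in Dock2.

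Type I interferons are secreted by cells that sense foreign or misplaced nucleic acid. They bind a receptor made of IFNAR1 and IFNAR2, whose kinases activate ISGF3, a complex that holds STAT2 and IRF9 and binds interferon-stimulated response elements (ISREs) in target promoters. In the intestine a low tonic signal from the microbiota keeps some of these targets on, and infection or epithelial injury can raise them.

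The members act at different points of that response. Isg15 encodes a ubiquitin-like modifier, and Usp18 encodes the protease that removes it and also blocks signalling at IFNAR2. Ifit1, Ifit2 and Ifit3 encode RNA-binding and partner proteins that restrain translation of foreign RNA. Oasl2 encodes a protein of the oligoadenylate synthetase family. Rsad2 encodes viperin, an enzyme that makes a chain-terminating ribonucleotide, and Mx1 encodes a dynamin-like antiviral GTPase. Irf7 encodes the transcription factor that amplifies interferon production, and Ifi44 a cytoplasmic protein induced by interferon.

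In GRCm38 coordinates with the GENCODE M21 annotation, all of them are protein-coding genes. Ifit2 (chr19:34550694-34576419), Ifit3 (chr19:34583531-34588731) and Ifit1 (chr19:34640871-34650009) form a cluster on the plus strand. Oasl2 (chr5:114896936-114912234) and Usp18 (chr6:121245906-121270917) are also on the plus strand. On the minus strand lie Ifi44 (chr3:151730922-151749960), Isg15 (chr4:156199424-156200818), Irf7 (chr7:141262706-141266481), Rsad2 (chr12:26442746-26456452) and Mx1 (chr16:97447035-97462907).

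Promoters were searched for the core of the ISRE, GAAANNGAAA, on both strands of RefSeq windows (GRCm38.p6) from 250 bases before to 50 bases after each start site. A window was found for 8 of the 10 genes, and Mx1 and Usp18 were not matched. The core occurred in 4 of those 8 genes (4 of their 9 windows), Isg15, Ifit1, Ifit3 and Rsad2, against 3.44% of all 32851 windows. Ifi44, Oasl2, Irf7 and Ifit2 held no match. The stretches around these matches are shown for the 4 genes that held the core, with the core in capitals and each read 5′ to 3′ along its gene.

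Isg15, chr4:156200850-156200921, minus strand: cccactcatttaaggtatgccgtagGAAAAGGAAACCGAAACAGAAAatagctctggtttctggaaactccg

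Ifit1, chr19:34640760-34640838, plus strand: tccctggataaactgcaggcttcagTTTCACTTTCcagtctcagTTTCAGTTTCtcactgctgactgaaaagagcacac

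Ifit3, chr19:34583348-34583441, plus strand: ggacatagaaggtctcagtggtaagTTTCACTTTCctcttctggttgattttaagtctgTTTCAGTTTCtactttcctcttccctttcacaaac

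Rsad2, chr12:26456538-26456597, minus strand: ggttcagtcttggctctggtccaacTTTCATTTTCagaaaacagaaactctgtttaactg

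Isg15 held 3 overlapping cores on its own strand between 78 and 57 bases before the start site. Ifit1 and Ifit3 each held a pair on the opposite strand, at 104 to 95 and 85 to 76 bases before the start in Ifit1 and at 156 to 147 and 122 to 113 in Ifit3. The single match in Rsad2 lay 120 to 111 bases before the start. The GAS element TTCNNNGAA, a motif of interferon-γ targets, occurred in 1 member (Ifit2, 241 to 233 bases before the start) and in 8.3% of all windows. A κB core, GGGANTTCC, occurred in 0 members and in 1.68% of windows. These are matches of letters, and binding was not measured.

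Every member had counts in all 160 samples. Irf7 overlaps the gene Phrf1 on the opposite strand. Whether the authors counted by strand is not given in the sources used here, so some Irf7 reads may be misassigned. This limit applies to every level, difference and correlation of Irf7 below. Levels are given as CPM, counts scaled to a library total of 1000000. Total counts ranged from 4344988 to 19993833 with a median of 15989625, so that 3 counts correspond to between 0.15 and 0.69 CPM. Compared per kilobase of exon, the median over all samples was highest for Irf7 (11.1 CPM per kb), followed by Isg15 (5.00), Oasl2 (4.43), Ifit1 (3.59), Ifit2 (3.42), Ifit3 (3.20), Rsad2 (2.28), Mx1 (1.75), Usp18 (1.70) and Ifi44 (0.465). Ranges over samples were wide for all of them, so neighbours in this order overlapped. Exon length was the union over all annotated transcripts of a gene, so the order also depends on the annotation.

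The genes differed in how far they moved between mice. The highest sample exceeded the lowest by 192-fold for Ifi44, 107-fold for Ifit1 and 101-fold for Isg15, against 27.1-fold for Mx1 and 13-fold for Irf7. After the means of genotype, sex and sample-number block (runs of consecutive numbers in the sample labels) were removed, the SD on the log2 CPM scale was 1.14 for Isg15, 1.12 for Ifit1, 1.098 for Ifi44 and 1.05 for Oasl2. It was lowest for Usp18 (0.609) and Irf7 (0.562). Members with a low median level per length were not always the most variable ones, since Mx1 and Usp18 had low levels and a small spread.

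**Figure D1:**
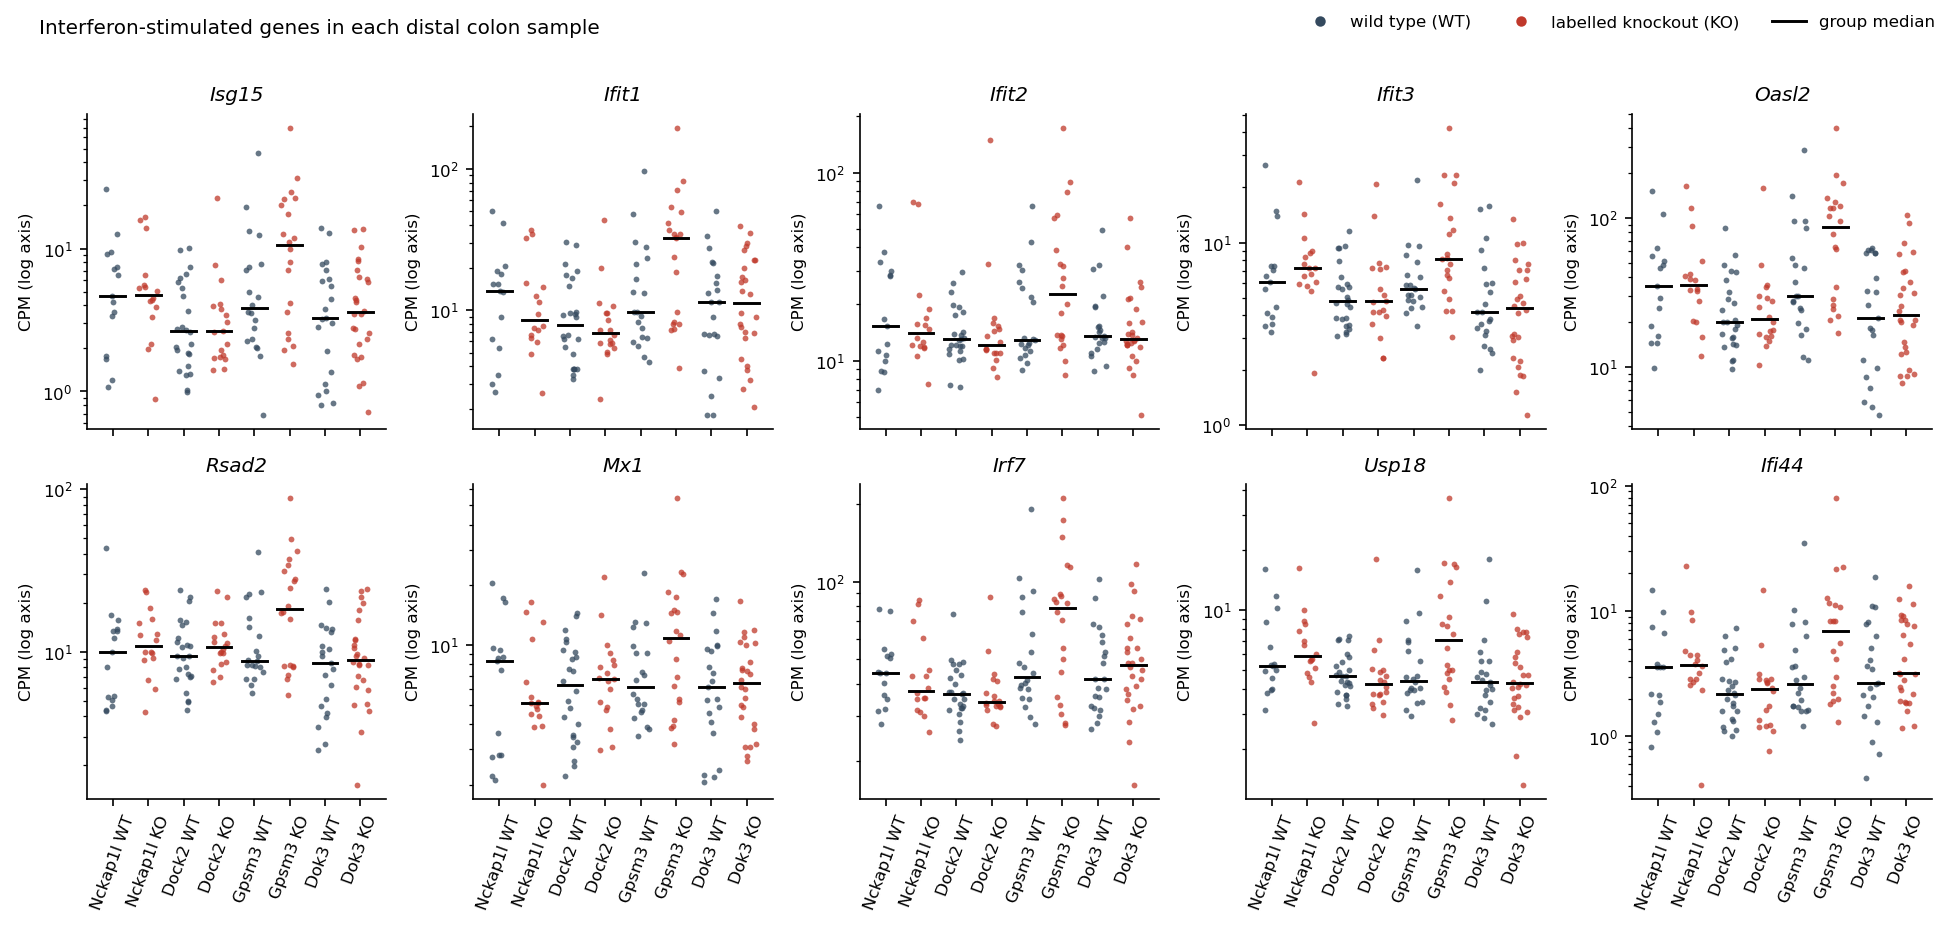
Level of each of the 10 genes in every sample (CPM, log axis), by line and genotype, with the group median as a bar. Wild-type and labelled knockout samples overlapped for every gene in every line, and the highest sample overall was a Gpsm3 knockout, with 69.4 CPM of Isg15 and 401 CPM of Oasl2.

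Knockout and wild type were compared within each line to ask whether loss of the targeted gene altered the interferon-stimulated genes. In edgeR's quasi-likelihood test with Benjamini-Hochberg adjustment over all genes tested, 0 of the 10 members passed an adjusted p of 0.05 in any line. The share of all genes that passed was 0% for Nckap1l, 0.0340% for Dock2, 0.00569% for Gpsm3 and 0% for Dok3. At an unadjusted p under 0.05, all 10 members were higher in Gpsm3 knockout mice, against 3.35% of all genes that were higher at that p. No member reached it for Nckap1l, Dock2 or Dok3, where 4.50%, 5.10% and 2.19% of all genes did so in either direction. The unadjusted count in the Gpsm3 line rested in part on 1 library, as given below.

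The targeted genes were read first as a check of the labels. Gpsm3 was lower in its knockout, at 0.238, 0.556 and 3.47 CPM (lowest, median and highest sample) against 0.731, 3.15 and 7.90 CPM in wild type. It was the only gene called in that line (log2 fold change -2.06, SE 0.281, adjusted p = 0.000101 by edgeR). Dock2 ranged from 12.6 to 45.4 CPM around a median of 22.4 in knockouts and from 15.2 to 70.4 around 35.7 in wild types (log2 fold change -0.62, SE 0.168, edgeR adjusted p = 0.210). Nckap1l had medians of 14.8 and 27.6 CPM (log2 fold change -1.09, SE 0.405, edgeR adjusted p = 1.00). Dok3 counts did not separate the genotypes, with medians of 3.30 and 3.67 CPM (log2 fold change -0.48, SE 0.388, edgeR adjusted p = 1.00), and the samples of that line are therefore called labelled knockouts. Counts over a whole gene can include transcript outside a deletion, and the levels of the groups overlapped in all lines.

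In the Gpsm3 line, Ifit3 ranged from 3.04 to 42.2 CPM in knockouts around a median of 8.17, and from 3.48 to 21.9 around 5.59 in wild types. Its log2 fold change was 0.83 (SE 0.267), with the smallest unadjusted edgeR p of the members (p = 0.00350, adjusted p = 0.936). Ifit1 had a knockout median of 32.6 CPM (3.90 to 193.9) and a wild-type median of 9.68 (4.32 to 96.7), with a log2 fold change of 1.06 (SE 0.426). For Ifit2, the medians were 22.5 CPM (8.42 to 172.6) and 12.9 (8.93 to 66.3), with a log2 fold change of 0.92 (SE 0.339). The lower ends of the ranges were close, and the highest knockout value of each Ifit gene came from the sample numbered 8006577686. Without it the highest knockout value was 81.7 CPM for Ifit1, below the highest wild type, 89.2 for Ifit2 and 23.5 for Ifit3. Of the 1646 stretches of 100 bases in Ifit3 transcripts, 31.7% also occur in Ifit3b, so reads of this pair could be misassigned, and 3.29% of Ifit1 stretches occur in Ifit1bl2.

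For Isg15 the knockout samples ran from 1.55 to 69.4 CPM with a median of 10.6, and the wild types from 0.688 to 46.2 with a median of 3.81. The log2 fold change was 0.94 (SE 0.457). Usp18, whose product removes Isg15 from its targets, had medians of 7.04 CPM (2.81 to 36.2) and 4.42 (2.93 to 15.8), and a log2 fold change of 0.81 (SE 0.265). Of 20 Usp18 knockout values, 16 lay above the wild-type median and 4 above the highest wild-type sample, which was the clearest shift of any member by this count.

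Among the antiviral effectors, Oasl2 was at 87.0 CPM in the median Gpsm3 knockout (16.8 to 401) and 29.9 in the median wild type (11.1 to 284.7), with a log2 fold change of 0.82 (SE 0.395). Rsad2 had medians of 18.3 CPM (5.43 to 87.6) and 8.82 (5.58 to 41.0), with a log2 fold change of 0.95 (SE 0.306). Mx1 had medians of 10.8 CPM (3.19 to 54.1) and 6.18 (3.49 to 23.0), with a log2 fold change of 0.76 (SE 0.294). C57BL6/J mice are known to carry an Mx1 allele with a deletion, which does not prevent reads from being counted on the rest of the gene. Ifi44 showed the largest fitted difference (log2 fold change 1.13, SE 0.469), from a knockout median of 6.89 CPM (1.31 to 79.0) and a wild-type median of 2.64 (1.20 to 34.8).

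Irf7, the transcription factor of the set, showed the smallest difference, a log2 fold change of 0.52 (SE 0.256), with medians of 79.2 CPM (27.8 to 210.4) and 42.7 (27.9 to 190.8). Its unadjusted edgeR p of 0.0482 was the largest among the members. Irf7 overlaps Phrf1 on the opposite strand, and the part of that overlap in these values was not tested. Across the 10 genes, the median log2 fold change was 0.87. From 13 to 16 of 20 knockout samples lay above the wild-type median, but only 1 to 4 lay above the highest wild-type sample, so the groups overlapped for each gene. The adjusted edgeR p was 0.936 for every member.

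**Figure D2:**
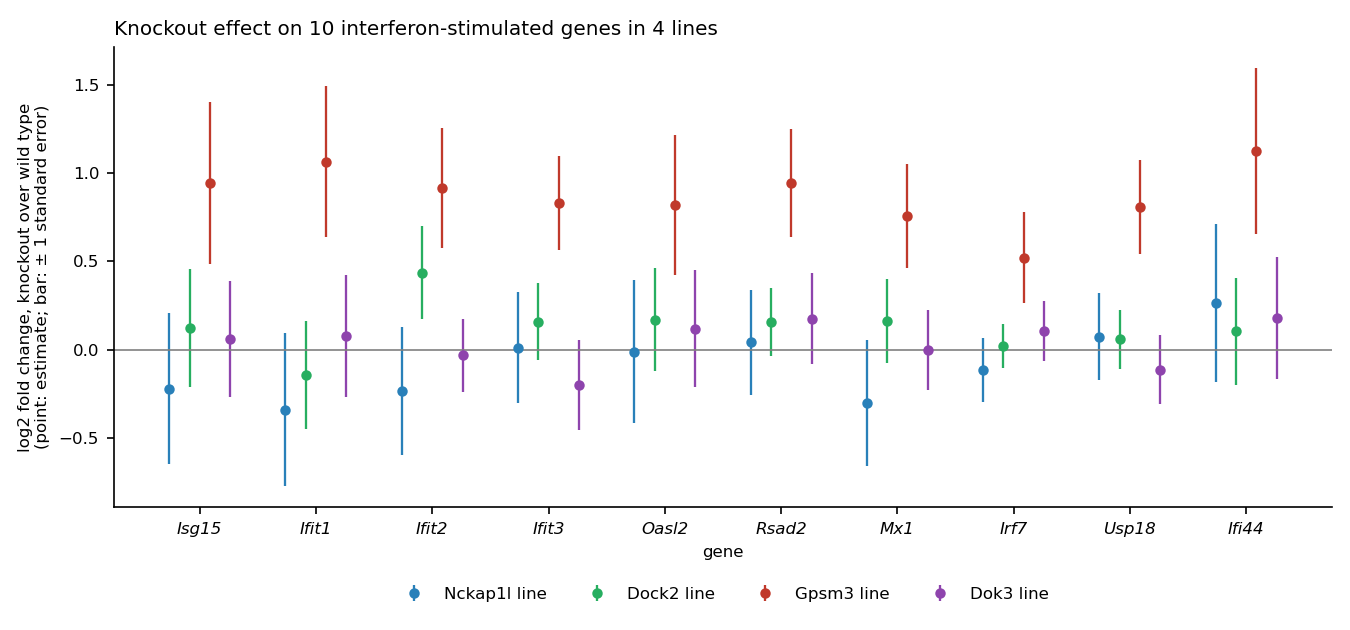
Log2 fold change of knockout over wild type for each gene in each line (edgeR estimate ± 1 standard error, samples as replicates). The Gpsm3 values lay between 0.52 and 1.13, whereas those of the other lines lay between -0.34 and 0.44.

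One library carried part of the Gpsm3 result. The knockout sample numbered 8006577686 held the highest level of every member in the series, with 1346 CPM summed over the 10 genes against a median of 290.4 in its group. Without it, 3 members instead of 10 reached an unadjusted edgeR p under 0.05, where 2.63% of all genes were higher at that p. The median log2 fold change was then 0.59. The highest knockout value then fell from 69.4 to 31.2 CPM for Isg15, from 401 to 194.9 for Oasl2 and from 79.0 to 22.4 for Ifi44, each below the highest wild type. The wild-type sample numbered 8006577687 had the highest sum of its own group, 797.6 CPM, and without it the median was 1.08. When each of the 40 samples was left out in turn, all 10 members remained higher in knockouts in every fit, and the count at an unadjusted p under 0.05 was 10 in 11 fits, 9 in 5, 8 in 4, 7 in 19 and 3 in 1. Isg15, Oasl2 and Irf7 were the members above that p in the fits with 7. Apart from the fits without 8006577686 or 8006577687, the share of all genes at that unadjusted p was not computed. No member passed the adjusted threshold in any of the 40 fits.

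**Figure D3:**
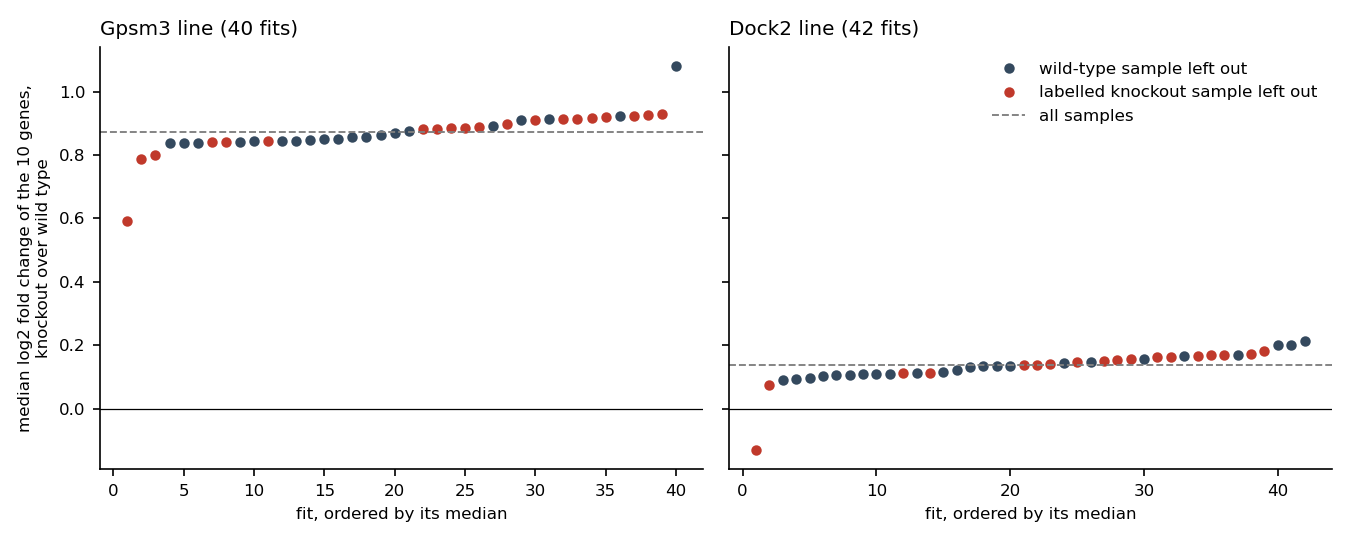
Median log2 fold change of the 10 genes when each sample of the Gpsm3 line (left) or the Dock2 line (right) was left out in turn, ordered by value. The Gpsm3 median stayed between 0.59 and 1.08, whereas the Dock2 median ran from -0.13 to 0.21 and was below 0 in the fit without 1 knockout sample.

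In the other lines the groups lay on top of each other. Among Nckap1l samples the median log2 fold change of the members was -0.06, from -0.34 (SE 0.436) for Ifit1 to 0.26 for Ifi44. Ifit1 had medians of 8.56 CPM in knockouts (2.58 to 37.1) and 13.7 in wild types (2.65 to 50.2). In the Dok3 line the median was 0.07, from -0.20 for Ifit3 to 0.18 for Ifi44. Ifi44 there ranged from 1.18 to 15.8 CPM in labelled knockouts and from 0.471 to 18.8 in wild types. In the Dock2 line 9 of 10 members were higher in knockouts by a median of 0.14, and Ifit2 had the highest value (0.44).

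The positive sign of the Dock2 median rested on 1 sample. The knockout numbered 178063132 had 148.6 CPM of Ifit2, against a group median of 12.1, and it was the highest of its group for all 10 genes. Without it, 2 of 10 members were higher in knockouts, the median was -0.13, and the log2 fold change of Ifit2 was -0.10 (unadjusted p over 0.05 for all members in each of the 42 fits).

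The difference between the Gpsm3 effect and that of each other line was tested in 1 model over all samples, since an effect in one line and not in another does not show that they differ. Against the Nckap1l effect, all 10 members were more positive in the Gpsm3 line by a median of 0.88, and 8 of them had an unadjusted edgeR p under 0.05, all but Oasl2 and Ifi44, where 5.39% of all genes were higher at that p. Adjusted p-values by edgeR ran from 0.262 to 0.752, and 0 members passed where 0.892% of all genes did. Ifit1 showed the largest of these differences (1.43, SE 0.576). Against the Dock2 effect, 3 members had an unadjusted p under 0.05, Ifit1 (1.20), Rsad2 (0.80) and Usp18 (0.74), with 4.26% of all genes higher at that p. None passed after adjustment, where 0.368% of all genes did. Against the labelled Dok3 knockouts, which differ in strain, 5 members were less positive in the Dok3 line at an unadjusted p under 0.05, where 4.67% of all genes were lower. These were Ifit2, Ifit3 (-1.03, SE 0.353), Rsad2, Mx1 and Usp18 (-0.92, SE 0.296). Again 0 passed the edgeR adjusted threshold, which 0.161% of all genes did.

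These differences depended on single libraries too. Without the knockout numbered 8006577686, the unadjusted counts were 1 against Nckap1l, 0 against Dock2 and 2 against Dok3. Without the Dock2 knockout numbered 178063132, the count against Dock2 was 10 instead of 3, and 0 members passed the adjusted threshold. The share of all genes at an unadjusted p under 0.05 was not computed for these refits, so their counts have no background to be read against. Between the other lines, 0 members had an unadjusted p under 0.05 for Dock2 against Nckap1l, Dok3 against Nckap1l or Dok3 against Dock2, where 3.04%, 4.62% and 1.92% of all genes did.

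The rest of the pathway was followed through lists of its genes, of which 0 passed the adjusted threshold in any line, so the counts that follow are at an unadjusted edgeR p under 0.05. Among 38 other interferon-stimulated genes tested in the Gpsm3 line, 27 were higher in knockouts at that p, against 3.35% of all genes, and all 38 had a positive fold change with a median of 0.47 on the log2 scale. Without the knockout numbered 8006577686, 12 of 38 were higher at that p, against 2.63% of all genes, with a median of 0.36. Without the wild type numbered 8006577687 the count was 35, where 610 of all 17544 genes tested were higher. Slfn8, a Schlafen family gene, had a log2 fold change of 0.90 (SE 0.288) over all samples and 0.83 without that knockout, and Tor3a had values of 0.16 (SE 0.0767) and 0.11, the latter above that p. In the Dock2 line 6 of 38 were higher at that p, against 2.35% of all genes, among them Ifit1bl1 (0.57, SE 0.169), a relative of Ifit1. The summed level of this list had nearly equal medians there, 1832 CPM in knockouts and 1845 in wild types, while the highest samples had 4476 and 2426. Without the knockout numbered 178063132, 3 of 38 were higher at that p, against 1.39% of all genes, with Ifit1bl1 at 0.43 (SE 0.151), and 19 of 38 had a positive fold change. In the Nckap1l and Dok3 lines the count was 0 of these genes.

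Upstream of the members, the ISGF3 genes Stat2 (log2 fold change 0.49, SE 0.169) and Irf9 (0.36, SE 0.159) were higher in Gpsm3 knockouts at an unadjusted p under 0.05, which 3.35% of all genes were. Of 6 receptor genes, 1 did so, Ifnar2 (0.35, SE 0.168), while Ifnar1 was at 0.08 (SE 0.0503) and Ifnlr1, the specific chain of the interferon-λ receptor, at 0.08 (SE 0.0699). Of 14 nucleic acid sensors and adaptors, 3 did so: Dhx58 (0.58, SE 0.230) and Ddx58 (0.33, SE 0.143), which encode the RNA sensors LGP2 and RIG-I, and Tlr9 (0.53, SE 0.238), which encodes an endosomal DNA sensor. Without the knockout numbered 8006577686, 0 of the 6 receptor genes and 0 of the 14 sensors and adaptors were higher at that p. Stat2 was then at 0.37 (SE 0.152) and still below that p, and Irf9 was at 0.30 (SE 0.156) and above it. Without the wild type numbered 8006577687, 5 of the 14 sensors and adaptors were higher at that p, where 610 of all 17544 genes tested were.

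Of the other 5 interferon regulatory factors, 2 were higher at that p in Gpsm3 knockouts, against 3.35% of all genes. These were Irf5 (0.43, SE 0.166) and Irf1 (0.41, SE 0.171). Irf3, which is activated by phosphorylation rather than induced, was at -0.02 (SE 0.0408). Of 6 feedback inhibitors tested, 2 were higher at that p, Socs1 (0.90, SE 0.326) and Socs3 (1.04, SE 0.478), and Ptpn6 was at 0.22 (SE 0.121). Both counts were 2 without the knockout numbered 8006577686 as well. Of 11 targets that lean towards interferon-γ, 6 were higher at that p in Gpsm3 knockouts, and 4 were without that sample. The chemokine gene Cxcl10 had the largest value (1.53, SE 0.429, and 1.55 without the sample).

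In the Dock2 line, 7 of the 11 interferon-γ-leaning targets were higher at that p over all samples, against 2.35% of all genes. Without the knockout numbered 178063132, 0 of these targets were, against 1.39% of all genes. Their summed level had medians of 532.9 CPM in knockouts and 533.8 in wild types, with highest samples of 2459 and 731.7. Cxcl9, another chemokine gene, went from 1.61 (SE 0.485) to 0.64 (SE 0.356) without that sample, and Ido1, which encodes a tryptophan-degrading enzyme, from 1.55 (SE 0.50) to 0.15 (SE 0.232). The count in this line therefore rested on 1 library.

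Transcripts of the interferons themselves were nearly absent. Ifnb1 had 1 count in 1 of 160 samples, and Ifna1, Ifna2 and Ifna4 had counts in 2, 4 and 1 samples. Ifna5 had 0 counts, which allows up to the level of 3 counts, 0.15 to 0.69 CPM, in each sample (counting error only). Ifna13 and Ifnz had counts in 64 and 45 samples, never above 4 and 3 counts. Ifnl2 and Ifnl3, the interferon-λ genes, had counts in 4 and 9 samples. Only Ifnk was present in every sample, at a median of 3.61 CPM. It lies within the Mob3b locus on the opposite strand, and whether the authors counted by strand is not given in the sources used here, so its reads may belong to Mob3b. At this depth the source of interferon cannot be read from these files.

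Markers of cell types were summed to show what else moved in the Gpsm3 line. For 8 neutrophil markers the knockout samples ran from 3.6 to 1422.5 CPM with a median of 17.4, and the wild types from 3.1 to 1204 with a median of 8.6. All 7 of those tested were higher in knockouts, by a median log2 fold change of 0.93, and 0 reached an unadjusted edgeR p under 0.05. Macrophage and monocyte markers had medians of 252.2 CPM (101.5 to 623.5) and 209.5 (125.9 to 410.3), with 8 of 8 higher and 0 at an unadjusted p under 0.05. Plasmacytoid dendritic cells, a rare and potent source of type I interferon, had marker medians of 11.2 CPM (7.3 to 29.9) and 9.4 (7.3 to 20.8). All 3 of those tested were higher, and 1 reached an unadjusted p under 0.05, Siglech (log2 fold change 0.54, SE 0.204, edgeR p = 0.0121, adjusted p = 0.936). B cell markers had medians of 60.6 CPM (5.9 to 274.8) and 48.0 (5.1 to 125.3), with 6 of 6 higher by a median log2 fold change of 0.54 and 0 at that p. T cell markers had medians of 12.0 CPM in knockouts and 11.8 in wild types, with 6 of 6 higher by a median of 0.27 and 0 at that p. Epithelial markers had medians of 7174 CPM (2579 to 10614) and 7000 (3232 to 9019). Striated muscle markers had the largest median log2 fold change of the marker lists (1.27), with 4 of 4 tested higher and 0 at that p. Their summed levels had medians of 12.8 CPM (6.0 to 9484) and 13.1 (5.9 to 5177). Endothelial and fibroblast markers were higher in 5 of 5 each, by medians of 0.119 and 0.175, with 0 at that p. Of smooth muscle markers 1 of 5 was higher, and of skin markers 1 of 4. No marker of these lists was at 0 in every sample, and their part in the member differences was not tested. In bulk tissue, fewer cells of a type and less RNA per cell cannot be told apart.

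The 40 Gpsm3 samples fell into 2 sample-number blocks with 10 knockouts and 10 wild types in each. All 10 members were higher in knockouts in both, with a median log2 fold change of 0.59 in block 1 and 1.03 in block 2. In block 1, 0 members had an unadjusted edgeR p under 0.05, where 2.03% of all genes were higher at that p. In block 2 there were 5, where 5.60% of all genes were: Ifit2 (1.39), Ifit3 (1.06), Rsad2 (1.03), Usp18 (1.00) and Mx1 (0.99). Block 2 held both the knockout numbered 8006577686 and the wild type numbered 8006577687, and its fit was not repeated without them. A test of the difference in effect between blocks gave no member an unadjusted p under 0.05 (p from 0.117 to 0.985 by edgeR), where 7.44% of all genes differed. Member levels did not pass a test of block 2 against block 1 either (0 of 10), although 7.93% of all genes did.

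**Figure D4:**
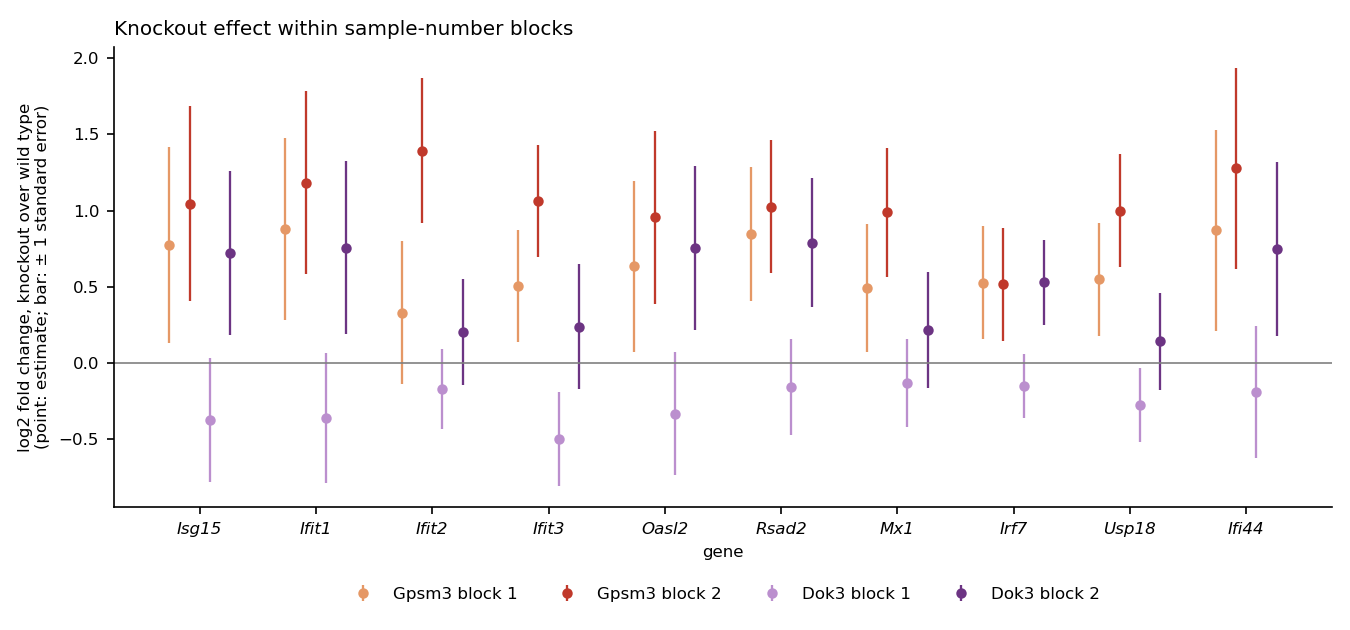
Log2 fold change of knockout over wild type within the sample-number blocks of the Gpsm3 and Dok3 lines (edgeR estimate ± 1 standard error). All 10 genes lay above 0 in both Gpsm3 blocks, and below 0 in Dok3 block 1 and above 0 in Dok3 block 2.

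In the Dok3 line, all 10 members were lower in labelled knockouts in block 1 (median log2 fold change -0.23) and higher in block 2 (median 0.63). The difference between blocks had unadjusted edgeR p-values from 0.0563 to 0.466, so 0 members reached an unadjusted p under 0.05, where 6.33% of all genes did. The median near 0 over the whole line thus combined values of opposite sign in its blocks. Between the blocks themselves 0 members passed, against 0.125% of all genes.

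In the Nckap1l line, where 38.0% of all genes differed between its 3 blocks at the adjusted threshold, 5 of the 10 members did, Ifit1 (edgeR adjusted p = 0.0131), Irf7 (0.0162), Mx1 (0.0242), Oasl2 (0.0294) and Rsad2 (0.0466), a share near that of genes in general. Ifit1 had wild-type medians of 5.82, 16.2 and 18.0 CPM in blocks 1, 2 and 3. Its knockout medians were 6.73, 12.6 and 11.3 CPM. Oasl2 had wild-type medians of 17.4, 55.8 and 46.4 CPM and knockout medians of 33.0, 38.8 and 32.3, so that its block 1 was low in wild types and not in knockouts. Irf7 had wild-type medians of 35.7, 52.4 and 51.1 CPM and knockout medians of 33.4, 45.5 and 42.9. Wild-type females made up 6 of the 8 wild-type samples in block 1 and 0 of 4 in block 2, and sex was a term of the fit. The knockout effect had 8 members higher in block 1, 0 in block 2 and 8 in block 3. Only Rsad2 differed in its effect between blocks at an unadjusted edgeR p under 0.05 (p = 0.0372, adjusted p = 0.730), against 6.62% of all genes.

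Wild-type mice were compared across the 4 lines, each group holding DSS-treated and untreated mice in unknown numbers. Oasl2 (edgeR adjusted p = 0.0248) and Irf7 (adjusted p = 0.0454) differed among lines, against 41.8% of all genes. Oasl2 had wild-type medians of 35.1 CPM in the Nckap1l line, 19.9 in Dock2, 29.9 in Gpsm3 and 21.2 in Dok3. Irf7 had medians of 44.2, 36.7, 42.7 and 41.7 CPM in the same order. Both calls were lost without the Gpsm3 wild-type sample numbered 8006577687 (edgeR adjusted p = 0.0862 for Oasl2 and 0.135 for Irf7). In pairs of lines, 1 member passed once: Oasl2 was lower in Dok3 than in Gpsm3 wild types (log2 difference -0.96, SE 0.353, edgeR adjusted p = 0.0319), where 12.2% of all genes were lower. Without the same sample the difference was -0.60 and the adjusted p 0.171.

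In the other 5 pairs 0 members passed, against 15.4% of all genes for Dock2 and Nckap1l, 24.1% for Gpsm3 and Nckap1l, 11.5% for Dok3 and Nckap1l, 0.121% for Gpsm3 and Dock2, and 10.6% for Dok3 and Dock2. Line was confounded with strain, DSS dose, day of collection and the unknown share of treated mice, and these cannot be told apart.

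Sex was a term of the Dock2 and Nckap1l fits. In the Dock2 line Ifit2 was lower in females (log2 difference -0.80, SE 0.266, edgeR adjusted p = 0.0467), where 5.89% of all genes were lower. The male knockouts, however, included the sample with 148.6 CPM of Ifit2. Its medians were 12.0 CPM in female knockouts (8.22 to 15.3), 12.0 in female wild types (7.27 to 19.7), 13.1 in male knockouts (9.18 to 148.6) and 13.1 in male wild types (10.8 to 29.6). Without that sample the difference was -0.38 and the edgeR adjusted p 0.0979. In the Nckap1l line all 10 members were lower in females (median log2 difference -0.34) and 0 reached an unadjusted p under 0.05, against 15.3% of all genes.

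Beyond genotype, the members varied together from mouse to mouse. Irf7 was correlated with each other member within each line, on log2 CPM residuals after the means of genotype, sex and sample-number block were removed. All 36 pairs passed an adjusted p of 0.05 in a permutation test (100000 resamples, 76 pairs in the family, smallest possible p 1e-05). The median Pearson r was 0.71 in the Nckap1l line (n = 31), 0.74 in Dock2 (n = 42), 0.90 in Gpsm3 (n = 40) and 0.59 in Dok3 (n = 47). Oasl2 was the closest partner of Irf7 in every line, with r from 0.80 to 0.94. The weakest pair was Irf7 with Ifit2 in the Dok3 line (r = 0.33, rho = 0.44, permutation adjusted p = 0.0334, and r = 0.39 without the 2 samples farthest from the median of Irf7).

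**Figure D5:**
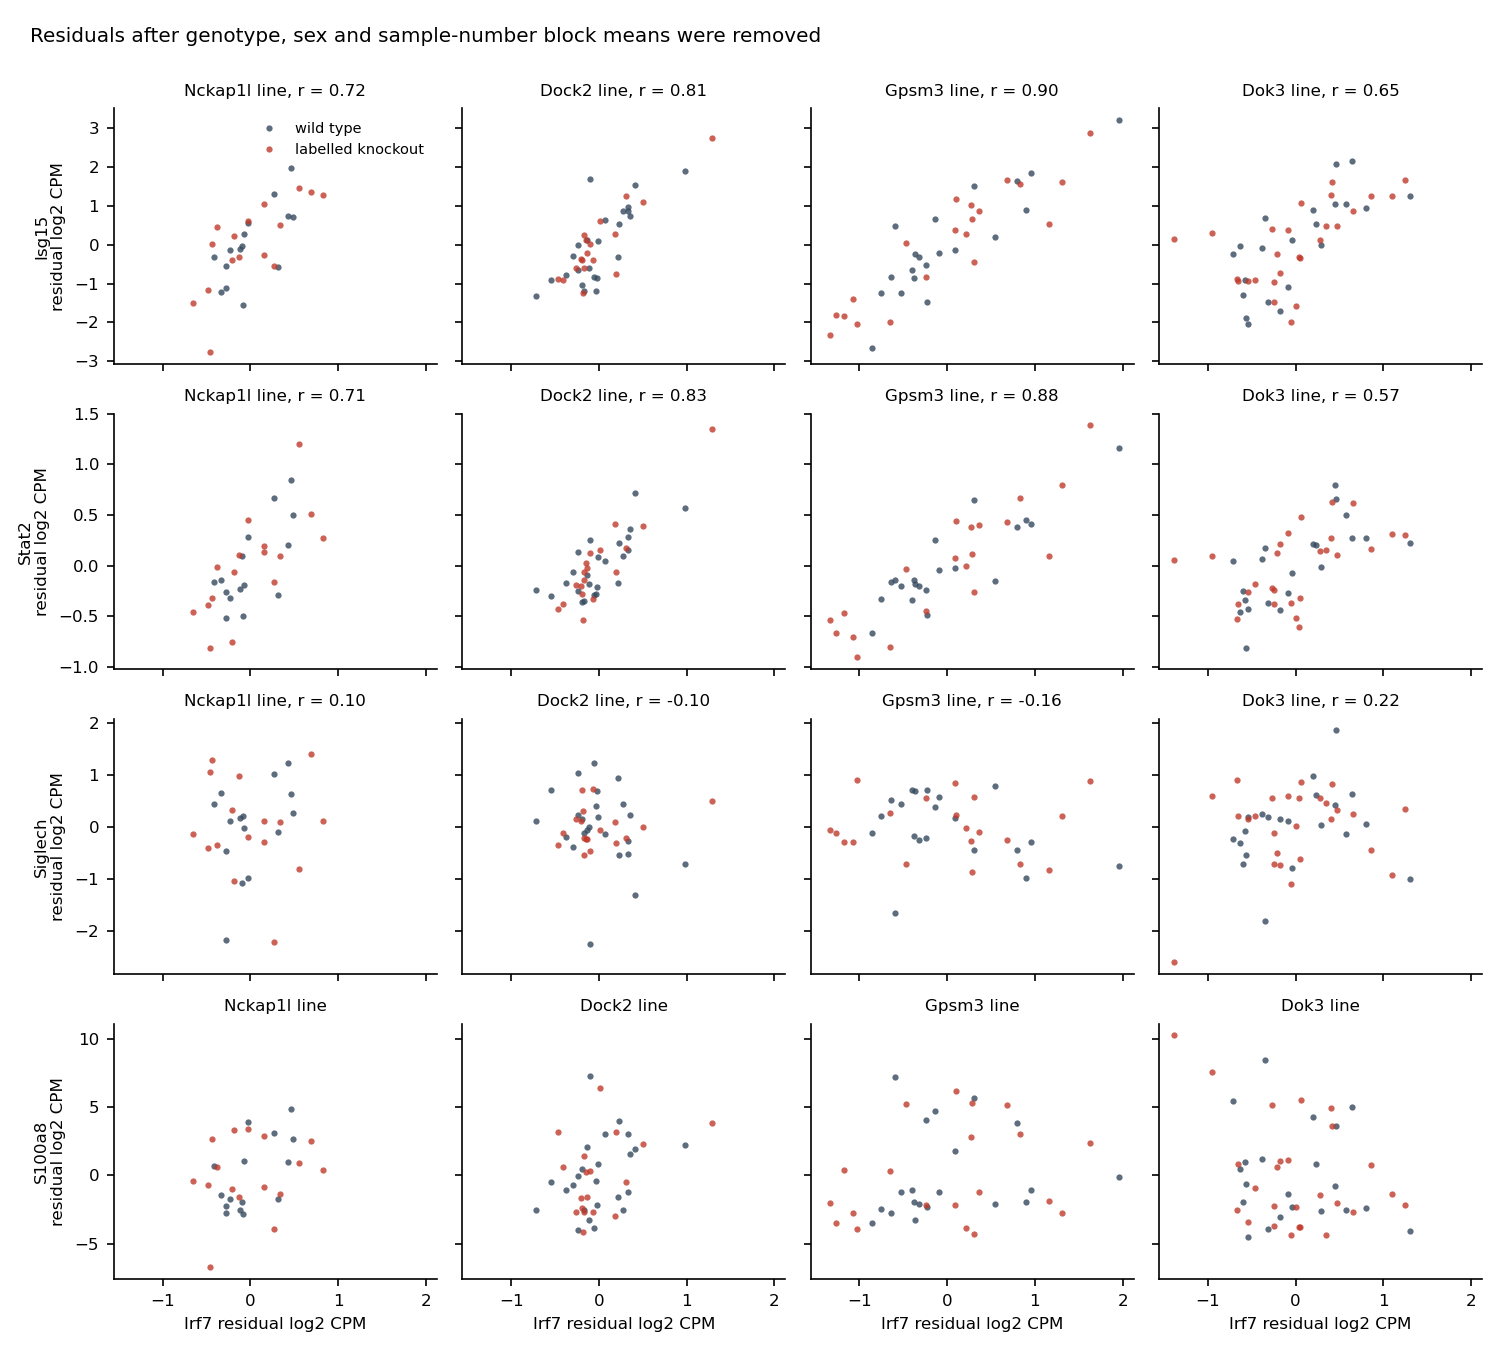
Residual log2 CPM of Isg15, Stat2, Siglech and S100a8 against Irf7 in each line, with 1 point per sample. Isg15 (r from 0.65 to 0.90) and Stat2 (r from 0.57 to 0.88) rose with Irf7 in all lines, Siglech did not (r from -0.16 to 0.22), and S100a8 fell into low and high sets of samples, for which no r is given.

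Outside the members, the ISGF3 genes followed Irf7 closely. Irf9 had r values of 0.76, 0.79, 0.94 and 0.65 and Stat2 values of 0.71, 0.83, 0.88 and 0.57 in the Nckap1l, Dock2, Gpsm3 and Dok3 lines. Cxcl10 had r values of 0.51, 0.56, 0.64 and 0.01. The interferon-γ-leaning gene Gbp2 had 0.53, 0.56, 0.62 and 0.24, the last with a permutation adjusted p of 0.132. Whether these correlations differ between lines was not tested.

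Cell type markers passed in fewer lines. Siglech of plasmacytoid dendritic cells passed in 0 of 4 lines. Epcam, an epithelial surface protein, had r values of 0.04, 0.30, 0.40 and 0.48, and passed in the Gpsm3 (permutation adjusted p = 0.0140) and Dok3 (0.000866) lines. Without the 2 farthest samples the Gpsm3 value was 0.31 and no longer passed (permutation adjusted p = 0.0825), while the Dok3 value was 0.37 and passed.

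Each member was also compared with the mean of the other 9 over the residuals of all 160 samples. Pearson r was 0.96 for Ifit1, 0.95 for Isg15, 0.94 for Oasl2 and 0.94 for Ifi44, then 0.89 for Usp18, 0.85 for Mx1, 0.84 for Ifit3, 0.83 for Ifit2, 0.80 for Irf7 and 0.77 for Rsad2. The 4 genes that varied most were those that tracked the mean most closely. The mean was taken over unscaled residuals, in which genes with a large spread weigh more, so this order is partly set by the measure. Among 19839 genes ranked by likeness to the mean of all 10, the nearest were Rtp4 (r = 0.95), a chaperone for receptors at the cell surface, and the oligoadenylate synthetase gene Oas3 (0.94). Next came Stat2 (0.92), Herc6 (0.92), which encodes a ligase that attaches Isg15 in mice, Oas2 (0.91), Irf9 (0.91), Rnf213 (0.90), Gm5431 (0.88), Ddx60 (0.88) and Mx2 (0.87). These r values describe likeness over samples that share lines and sample-number blocks, and Mx2 shares 0.93% of the 100-base stretches of Mx1.

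Some libraries stood apart. Of the 160, 8 held fewer than 10000000 counts, and 32 had over 100 CPM of skin markers, which is not colon (15 in the Nckap1l line, 5 in Dock2, 3 in Gpsm3 and 9 in Dok3). In the Dok3 line 5 samples labelled male did not match their label by sex-linked genes. Colonic epithelial markers summed to at least 590 CPM in every sample. B cell markers were lower in the knockouts of the Nckap1l line (6 of 6 at an unadjusted edgeR p under 0.05, median log2 fold change -2.40) and of the Dock2 line (6 of 6, median -0.89). Leaving out the libraries under 10000000 counts, those with skin markers or those that did not match their label gave 0 members past the adjusted threshold in every line.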

How the data were processed

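Total RNA of mouse distal colon was made into ribosome-depleted libraries with a stranded KAPA kit and sequenced as single 100-base reads. The authors aligned these to mm10 by STAR, assigned them to Ensembl genes by featureCounts of Subread, and deposited the raw counts per gene, not normalized (versions and strand setting are not given in the sources used here). Of 39179 genes, 37693 took a symbol from GENCODE M21, and these held 99.67% of counts. The members and gene lists were chosen with earlier results of these data known. Named genes are the members, up to 3 genes per list with the smallest p in any line, and the 10 genes most like the members.

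After TMM scaling and the filterByExpr filter, counts entered edgeR (version 4.0.16, R 4.3.3) and its quasi-likelihood test. Fits of Nckap1l and Dock2 samples had a term for sex. P-values were adjusted by Benjamini-Hochberg over all genes tested. Differences between lines were contrasts in 1 fit over all samples, which share 1 estimate of the spread. Levels are CPM of library totals. Correlations used log2 CPM (prior count 2) in Python 3.11.15 with SciPy 1.17.1. Alternatives were DESeq2 1.42.0, limma-voom as in the study (limma 3.58.1), and other scalings, filters, covariates and samples. Leaving out single samples, for members and gene lists, was added after the data were seen. The fits were checked on simulated counts. Among 1569 pairs within groups no duplicate library was found. Samples are numbered by their labels, and p-values measure the spread between these samples. Ifnab and Gbp5 were not analysed here, and some listed genes are not reported here.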

Additional observations from a re-analysis of the deposited data

How the results depend on the processing

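No member passed the adjusted threshold for knockout against wild type in any line under any alternative run. The unadjusted count in the Gpsm3 line was 10 with DESeq2, without the filter, without samples under 10000000 counts and without samples with skin markers. It was 9 with library totals alone, 8 with the sample-number block as a covariate and 7 with limma-voom. The share of all genes higher at that p was 3.35% in the main fit and was not computed for these alternatives. The members' median log2 fold change stayed between 0.69 and 0.93. Leaving out 1 sample gave 3 to 10 members and medians from 0.59 to 1.08. In the Nckap1l line the median was near 0 and changed sign (-0.17 without skin-marker samples, 0.07 with limma-voom). In the Dock2 line it was 0.39 in males only, 1 member reached an unadjusted p under 0.05 without the sex covariate, Ifit1 was 0.072 in males only, and Ifit2 was -0.11 with DESeq2 and from -0.10 to 0.49 with 1 sample left out. Of 216 further member values, 34 changed sign and 0 passed. The cause of these changes was not tested, and the share of all genes was not computed for the Dock2 fit without the sex covariate.

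The 2 members called between wild types (Oasl2 and Irf7) were 0 with limma-voom, males only or without Gpsm3 wild type replicate 8006577687, and 1 with library totals alone, no filter or no samples under 10000000 counts. Without skin-marker samples 3 others passed, Isg15 (edgeR adjusted p = 0.0481), Ifit2 (0.0132) and Ifit3 (0.0464), and Oasl2 (0.0524) and Irf7 (0.165) did not. Unadjusted counts were 3, against 1 with limma-voom or without that replicate and 5 without skin-marker samples. The share of all genes at an unadjusted p under 0.05 was not computed for these alternatives. All genes called numbered 7963, against 3619 in males only and 4263 without skin-marker samples. The sex difference of Ifit2 in the Dock2 line was lost with limma-voom (0 members) and without Dock2 knockout replicate 178063132 (0 members), and Usp18 in Nckap1l females was at 0.066 with limma-voom.

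For the difference of the Gpsm3 and Nckap1l effects, members at an unadjusted p under 0.05 fell to 1 with limma-voom and 1 in males only, with 1 to 6 when a doubted sample was left out. For Gpsm3 and Dock2 the counts were 1 and 0, with 0 to 10. For Dok3 and Gpsm3 limma-voom gave 2, and leaving out a doubted sample 2 to 5. The share of all genes at that p was not computed for these alternatives.

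Genes called over the whole table depended on the tool. DESeq2 gave 21, 69, 4 and 3 in the Nckap1l, Dock2, Gpsm3 and Dok3 lines, and no filter gave 27, 31, 32 and 15. In the Dock2 line limma-voom gave 0, males only 1, no skin-marker samples 79 and single samples left out 4 to 39, against 6. In the Gpsm3 line no skin-marker samples gave 2 and single samples left out 1 to 34, against 1. Differences of effects called 3 genes for Dock2 and Nckap1l, 177 for Gpsm3 and Nckap1l, 28 for Dok3 and Nckap1l, 73 for Gpsm3 and Dock2, 10 for Dok3 and Dock2 and 32 for Dok3 and Gpsm3. In the same order limma-voom gave 0, 1, 0, 1, 0 and 1. Males only gave 0, 0, 8, 87, 4 and 5. Leaving out a doubted sample gave 3 to 7, 3 to 10 and 34 to 50 for Dock2 and Nckap1l, Dok3 and Dock2, and Dok3 and Gpsm3.

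The 36 correlations with Irf7 passed with a prior count of 0.5 and with library totals alone. The block fits and their calls were not repeated with single samples left out. No samples under 10000000 counts were in the Nckap1l line, and none that went against their sex label outside the Dok3 line, so those alternatives gave no value there. Depth limits the interferon transcripts: 0 counts in a sample allow a level of up to 3 counts, which is 0.15 to 0.69 CPM. No paired analysis was possible because each sample number occurs once.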
